A study of Mus musculus with 3 samples.

Results

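This account covers 10 genes of the peroxisome proliferator-activated receptor (PPAR) system: the receptors Pparg, Ppara and Ppard, the coactivators Ppargc1a and Ppargc1b, the estrogen-related receptors Esrra and Esrrg, the liver X receptor Nr1h3, and the retinoid X receptors Rxra and Rxrg. They were chosen by symbol in the platform's probe table, and all 10 were found, on 11 probe sets, among 19938 genes measured. Expression was measured on 3 mouse arrays: cultured fibroblasts, cells named DiBA, and a sample named BA. Per the series title the study concerns brown adipocytes made from another cell type by direct conversion. The BA sample carries brown adipose tissue as its source while its description speaks of cultivated cells, so the labels do not settle whether it was tissue or cultured cells. No sample carried a drug or other treatment per the labels. The labels state neither the conversion factors nor the strain and age of the mice.

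PPARs are ligand-activated transcription factors that bind DNA as heterodimers with retinoid X receptors and respond to fatty acids and their derivatives. Pparg is required for adipocyte differentiation, while Ppara and Ppard are best known for fatty acid oxidation. The PGC-1 coactivators, encoded by Ppargc1a and Ppargc1b, bind PPARs and estrogen-related receptors and raise mitochondrial gene expression. In brown fat, Ppargc1a is induced by cold through adrenergic signalling.

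Each group was 1 array, so every difference describes these arrays, has no replicate check, and carries no p-value. The number of arrays limits the precision. The median over all probe sets was 67.8 on the fibroblast array, 71.5 on DiBA and 67.7 on BA. Differences are on the log2(intensity + 1) scale, and folds are taken from them. A gene counted as higher or lower once it differed 2-fold or more and its higher array reached 69.2, the median of all probe sets and arrays. An intensity under 69.2 was treated as near background, where folds are imprecise, and for the 10 genes the value with such intensities raised to 69.2, the floor, is given beside each fold it changes. All 10 genes passed this level in each comparison. Many probe sets carried exactly the same value on different arrays, 39.5% of them on DiBA and fibroblasts and 47.3% on DiBA and BA. In bulk RNA, fewer cells of a type and less RNA per cell cannot be told apart.

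The labelled identities were checked against markers. Among all genes that passed the level, 14.7% were higher and 13.2% lower in DiBA than in fibroblasts, and 16.3% and 16.4% in BA. These shares stand beside each marker count below. Of 10 brown adipocyte markers, 7 were at least 2-fold higher in DiBA and 7 in BA than in fibroblasts, and 0 lower. With values under 69.2 raised to it, 5 were higher in each. Ucp1, the uncoupling protein of brown fat, had intensities of 23.5, 4598 and 4995 in fibroblasts, DiBA and BA. The 3 brown markers not called were Zic1, Lhx8 and Cited1. Zic1 read highest in fibroblasts, at 282.5, 160.4 and 168.3. Lhx8 read 66.3, 83.5 and 98.5, and Cited1 was tied at 80.7 on all 3 arrays. The brown markers summed to 847, 21692 and 23242, in DiBA and BA mostly from Cox8b, Cox7a1 and Ucp1. Markers of other cell types moved with the same contrast. Of 18 skeletal muscle markers, 16 were higher in DiBA and 16 in BA, and their summed intensity was 2306 in fibroblasts, 18894 in DiBA and 21739 in BA. Endothelial markers summed to 1419, 4166 and 4936, with 9 of 12 higher in DiBA and 10 in BA. Macrophage markers summed to 1469, 5129 and 5079, with 11 of 13 higher in DiBA and 10 in BA. The DiBA array, although labelled as cultured cells, thus carried muscle, endothelial and macrophage marker signal close to that of BA. No endothelial or muscle marker listed was under 69.2 in DiBA or BA, and 2 of 13 macrophage markers were under it in DiBA. Fibroblast markers summed to 36360, 19501 and 16440, with 6 of 12 lower and 2 higher in DiBA, and 7 lower and 2 higher in BA. Ppara, Ppargc1a, Esrrg and Rxrg are also expressed in skeletal muscle, and the part of these other cell types in the results below was not tested.

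Within the PPAR family, Pparg and Ppara were far higher in DiBA and BA than in fibroblasts, while Ppard was not. Pparg (probe set 10540897) had an intensity of 115 in fibroblasts, 2969 in DiBA and 3196 in BA. Its level was 25.6-fold higher in DiBA and 27.6-fold higher in BA, log2 differences of 4.68 and 4.79. The fibroblast value lay above the median of all probe sets, and the floor of 69.2 left both folds as they were. The probe set lists transcripts of both main isoforms, gamma1 and gamma2, which it therefore does not separate.

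Ppara (probe set 10425987), the receptor that drives fatty acid oxidation genes, had intensities of 43.2, 1827 and 2179 in fibroblasts, DiBA and BA. The differences were 5.37 and 5.62 on the log2 scale, or 41.3-fold and 49.3-fold. The fibroblast value was below 69.2, and raising it to that level gave 26.1-fold and 31.1-fold. With that floor, Ppara at 26.1-fold and Pparg at 25.6-fold lay close together in DiBA. Ppard (probe set 10443332), the widely expressed family member, read 342 in fibroblasts, 342 in DiBA and 339 in BA. Its fibroblast and DiBA values were the same to the last deposited digit, and its difference between BA and fibroblasts was -0.02. Such a tie is a feature of the deposited table and gives no measure of how closely Ppard matched between the arrays.

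Promoter sequence is shown for the 3 PPAR genes because they split in their values while belonging to 1 family. RefSeq (GRCm38.p6) gave starts for 9 of the 10 genes, all but Ppargc1b, 17 starts in all. Each line gives the 250 bases before a start, 5′ to 3′ on the gene's strand, and capitals mark the nuclear receptor half-site AGGTCA and the GC box GGGCGG on either strand. Pparg has 3 starts in the table. Start 3 lies 60.9 kb downstream of start 1, and the gamma2 isoform, which is typical of adipocytes, is known to start at a promoter inside the gene.
Pparg start 1, chr6:115360894-115361143 (+): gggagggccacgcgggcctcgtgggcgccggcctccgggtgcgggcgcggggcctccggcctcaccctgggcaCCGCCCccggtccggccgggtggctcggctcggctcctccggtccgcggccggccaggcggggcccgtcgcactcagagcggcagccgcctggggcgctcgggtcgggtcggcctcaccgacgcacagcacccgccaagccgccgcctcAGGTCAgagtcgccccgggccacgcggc
Pparg start 3, chr6:115421816-115422065 (+): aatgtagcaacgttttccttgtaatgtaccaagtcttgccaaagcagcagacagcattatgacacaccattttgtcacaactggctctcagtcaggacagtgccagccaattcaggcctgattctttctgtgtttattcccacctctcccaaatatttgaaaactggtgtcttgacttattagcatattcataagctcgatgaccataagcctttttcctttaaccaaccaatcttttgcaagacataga
Ppara, chr15:85735526-85735775 (+): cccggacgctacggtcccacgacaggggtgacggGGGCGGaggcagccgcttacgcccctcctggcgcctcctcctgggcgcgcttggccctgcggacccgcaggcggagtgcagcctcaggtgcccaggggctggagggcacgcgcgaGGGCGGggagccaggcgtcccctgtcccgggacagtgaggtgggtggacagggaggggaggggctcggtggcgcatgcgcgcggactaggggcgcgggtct
Ppard, chr17:28232504-28232753 (+): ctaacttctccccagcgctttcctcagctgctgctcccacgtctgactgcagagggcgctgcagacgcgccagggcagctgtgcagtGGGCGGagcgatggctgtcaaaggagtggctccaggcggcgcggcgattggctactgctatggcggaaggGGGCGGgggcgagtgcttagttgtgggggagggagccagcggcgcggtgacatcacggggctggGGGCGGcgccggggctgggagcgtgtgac

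Pparg start 1 had 38 CpG dinucleotides in the window and a GC content of 82.4%, against 2 and 40.8% at start 3. The median over 32851 promoter windows was 6 CpGs. Ppara had 27 and Ppard 22, both above that median. Pparg start 2, which is not printed, had 12 CpGs, a GC content of 63.6% and 2 GC boxes. The AGGTCA half-site occurred at Pparg start 1, 28 to 23 bases before it, and in none of the other windows printed. It is present in 14% of all windows. GC boxes, present in 32.7% of all windows, numbered 1 at Pparg start 1, 2 in Ppara and 3 in Ppard.

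Further motifs searched on both strands were the PPAR-RXR element AGGTCANAGGTCA, the LXR-RXR element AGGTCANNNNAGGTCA, the ERR element TCAAGGTCA, the cAMP response element TGACGTCA, the E-box CACGTG and the C/EBP palindrome TTGCGCAA. The first 3 contain the half-site. Their shares of all windows were 0.0335%, 0.0152%, 0.387%, 1.55%, 6.02% and 0.164%. None was found in any of the 17 windows of the 9 genes, which says only that these exact letters are not there. Beyond the windows printed, the half-site occurred at the second starts of Pparg, Rxra and Rxrg.

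**Figure D1:**
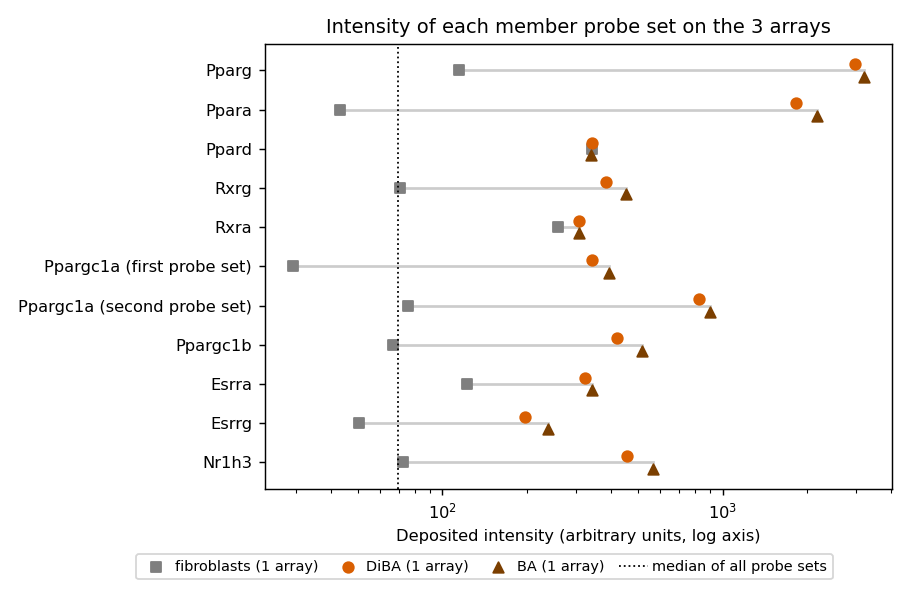
Deposited intensity (log axis) of the 11 probe sets on each of 3 arrays: grey squares fibroblasts, orange circles DiBA, brown triangles BA; the dotted line is the median of all probe sets, 69.2. DiBA and BA lie together to the right of fibroblasts for Pparg at 2969 and 3196 against 115, and the 3 symbols of Ppard overlap near 342; levels of different probe sets are not comparable.

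The retinoid X receptors, which pair with PPARs and liver X receptors on DNA, differed among themselves in the same way. Rxrg (probe set 10351430), an isoform found in muscle and brain among other tissues, had intensities of 70.5 in fibroblasts, 385 in DiBA and 451 in BA. It was 5.40-fold higher in DiBA and 6.32-fold higher in BA. Rxra (probe set 10470446), the broadly expressed isoform, read 258, 308 and 308. Its log2 difference was 0.26 in both comparisons with fibroblasts, and its DiBA and BA values were an exact tie. Rxrb, the remaining isoform, which was not among the 10, read 178, 331 and 349, a difference of 0.89 in DiBA and 0.97 in BA. It thus stayed short of 2-fold in both.

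Both PGC-1 coactivators were higher in DiBA and BA than in fibroblasts. Ppargc1a had 2 probe sets. The first (10529977) read 29.3, 342 and 393 in fibroblasts, DiBA and BA, and the second (10529979) read 75.1, 824 and 902. The 2 gave like log2 differences, 3.50 and 3.44 in DiBA and 3.70 and 3.57 in BA. Averaged on the log2 scale, Ppargc1a was 11.1-fold higher in DiBA and 12.4-fold higher in BA. With fibroblast values under 69.2 raised to it these became 7.28-fold and 8.16-fold. Ppargc1b (probe set 10459193), the paralogue that also drives mitochondrial genes, read 66.7, 421 and 517. It was 6.23-fold and 7.66-fold higher, or 6.01-fold and 7.39-fold with the floor.

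Pprc1, the remaining PGC-1 family gene, which is known to be induced by serum in growing cells and was on the list of coregulators, went the other way. It read 266 in fibroblasts, 92.4 in DiBA and 62.2 in BA, differences of -1.51 and -2.08. The 2 PGC-1 genes among the 10 were thus higher and Pprc1 lower than in fibroblasts, in DiBA as in BA.

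The estrogen-related receptors, orphan receptors that PGC-1 coactivates on mitochondrial genes, showed smaller folds. Esrra (probe set 10465485) read 122, 323 and 342 in fibroblasts, DiBA and BA, which is 2.63-fold and 2.79-fold higher. Esrrg (probe set 10352576), which is enriched in oxidative tissues such as heart and muscle, read 50.2, 197 and 238. It was 3.86-fold and 4.66-fold higher, or 2.82-fold and 3.40-fold with the floor. The family's remaining gene, Esrrb, stayed under 69.2 on all 3 arrays, at 34.7, 42.8 and 47.4.

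Nr1h3, which encodes the sterol-sensing receptor LXR alpha, had its probe set 10484987 at 72.2 in fibroblasts, 454 in DiBA and 564 in BA. It was 6.22-fold and 7.72-fold higher, with log2 differences of 2.64 and 2.95. Its fibroblast value lay just above the median of all probe sets.

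Across the 10 genes, 8 were at least 2-fold higher and 0 lower in DiBA than in fibroblasts, against 14.7% of 11621 genes that were higher and 13.2% that were lower. In BA the count was also 8 higher and 0 lower, against 16.3% and 16.4% of 11663 genes. Ppard and Rxra were the 2 not called in either comparison. The median difference of the 10 was 2.54 in DiBA and 2.80 in BA, and that of all genes was 0 in both. With low values raised to 69.2, the count remained 8 in both comparisons, against 13.2% and 14.9% of genes higher. Both comparisons use the same fibroblast array, so they are not independent of each other. The 10 genes were chosen with earlier results of these data known, so these counts describe them and test nothing.

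**Figure D2:**
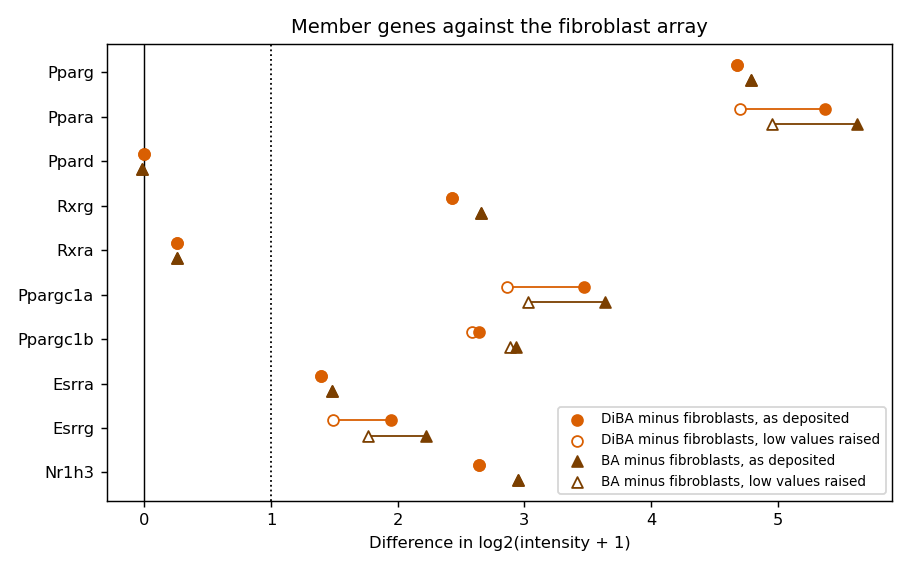
Difference in log2(intensity + 1) from the fibroblast array for each gene, with 1 array per group; orange circles are DiBA, brown triangles BA, and open symbols have intensities under 69.2 raised to it. The dotted line marks 2-fold: Ppard and Rxra lie left of it, the other 8 right of it, and the floor shortens Ppara from 5.37 to 4.70 in DiBA.

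Set directly against BA, DiBA reached 2-fold for 0 of the 10 genes, where 1.75% of 11076 genes were at least 2-fold higher and 0 were lower. The DiBA intensity was below that of BA for 8 of the 10, tied for Rxra and slightly above for Ppard, at a difference of 0.02 that became -0.06 with centred arrays and -0.01 with quantile normalization. As a share of the BA intensity it was 92.9% for Pparg, 83.8% for Ppara, 94.5% for Esrra, 82.7% for Esrrg and 85.3% for Rxrg. For Nr1h3 it was 80.6%, for Ppargc1b 81.3% and for Ppargc1a 89.2%. As deposited, the 10 differences ran from -0.31 to 0.02 (log2), with a median of -0.20. Over the 11076 genes the median was 0, with quartiles at -0.10 and 0.05. With 1 array each, no error can be put on these small differences. The 18 skeletal muscle markers were all lower in DiBA than in BA as well, with a median of -0.22, as were 11 of 12 endothelial markers, with a median of -0.27. So were 8 of 10 brown adipocyte markers, with a median of -0.10, and 9 of 13 macrophage markers, with a median of -0.09. Of 12 fibroblast markers, 3 were below BA and 9 above, with a median of 0.22. Among the 11076 genes, 4570 lay below BA and 3609 above.

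For each of the 8 genes called in both comparisons with fibroblasts, the 3 genes of closest pattern were sought among 11340 others by the Euclidean distance of their centred log2 values over the 3 arrays. With 3 arrays many genes lie close by. Pparg had Pnpla2, the triglyceride lipase of adipocytes, at 0.059, Mgst1 at 0.060 and the muscle creatine kinase gene Ckm at 0.064. Ppara had Pvalb, the calcium-binding parvalbumin of fast muscle, at 0.028, then Dhdh at 0.11 and Lipe, hormone-sensitive lipase, at 0.13. Pvalb read 42.7, 1841 and 2140 in fibroblasts, DiBA and BA, beside 43.2, 1827 and 2179 for Ppara. Ckm and Pvalb were on the list of skeletal muscle markers, and Pnpla2 and Lipe on that of PPAR gamma target genes described below. What lies behind these like patterns was not tested.

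The nearest genes of Ppargc1a were the clock output gene Dbp at 0.038, the mitophagy receptor gene Bnip3 at 0.038 and Hsdl2 at 0.041. Ppargc1b and Nr1h3 shared their first 2, Ormdl3 at 0.017 and 0.015, and Me3, a mitochondrial malic enzyme gene, at 0.024 and 0.034. Their remaining genes were Odf3l1 at 0.025 and Stradb at 0.035. Esrra lay next to Lactb2 at 0.010, Aco1 at 0.020 and Grina at 0.021. Esrrg lay next to Trmt2b at 0.0092, Asah2 at 0.010 and Ndufb10, a subunit gene of respiratory complex I, at 0.018. Rxrg lay next to Taldo1 at 0.0096, Tppp at 0.012 and Gngt2 at 0.013.

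Among the other nuclear receptors, 37 of 41 were measured. In DiBA 6 of the 37 were at least 2-fold higher than in fibroblasts and 0 lower, and in BA 7 were higher and 3 lower. With the floor, 2 were lower in BA. The level, which every called gene must pass, was passed by 21 of the 37 in each comparison with fibroblasts. The counts are to be read out of these 21 beside the shares that follow. Among all genes that passed it, 14.7% were higher and 13.2% lower in DiBA, and 16.3% and 16.4% in BA. The median difference of the 37 was 0 in both, where 12 differences in DiBA and 10 in BA were exactly 0. Thrb, a thyroid hormone receptor gene, read 36.6, 377 and 433 in fibroblasts, DiBA and BA, differences of 3.33 and 3.53, or 2.43 and 2.63 with the floor. Nr1d1, the clock repressor Rev-erb alpha, read 214, 1759 and 2089, differences of 3.04 and 3.28. Nr3c2, the mineralocorticoid receptor gene, read 22.1, 163 and 203, differences of 2.82 and 3.14, or 1.22 and 1.54 with the floor. Of the 45 receptor genes measured, Ppara and Pparg had the largest differences from fibroblasts in DiBA and in BA. With the floor, Ppara was at 4.70 and Pparg at 4.68 in DiBA.

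**Figure D3:**
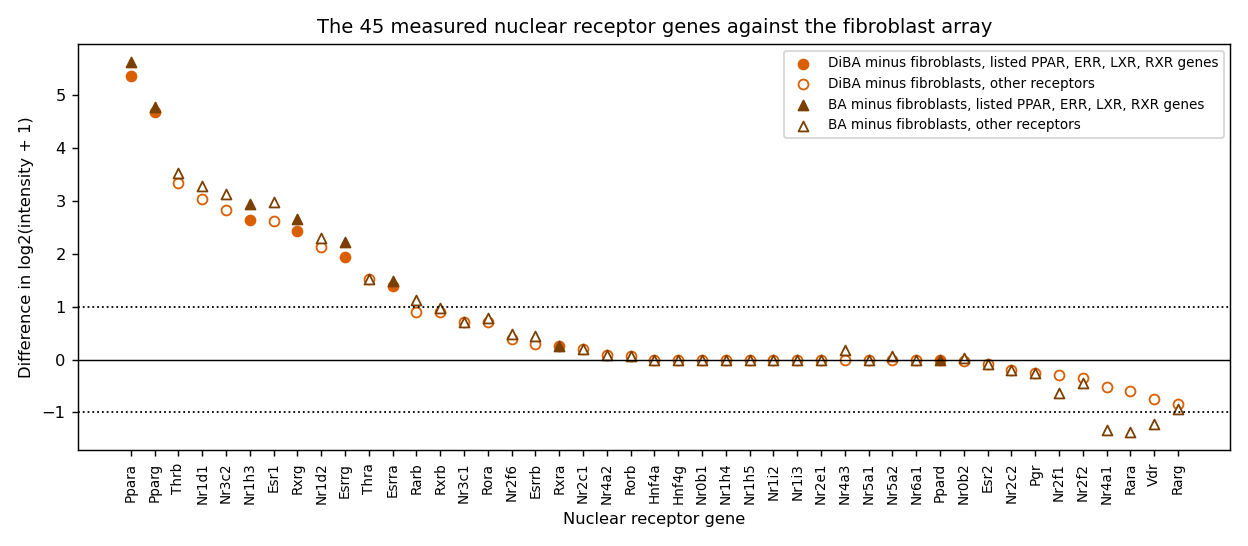
Difference in log2(intensity + 1) from the fibroblast array for the 45 measured nuclear receptor genes, ordered by the DiBA value, 1 array per group; filled symbols are the 8 receptors of the PPAR, ERR, LXR and RXR set described, open symbols the other 37, circles DiBA and triangles BA. Dotted lines mark 2-fold; Ppara at 5.37 and Pparg at 4.68 stand at the left end, and Ppard and Rxra lie among receptors near 0.

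Of 22 listed coregulators, 19 were measured. In DiBA 2 were higher and 2 lower than in fibroblasts, and in BA 3 were higher and 3 lower, with medians of -0.07 and -0.08. Those counts were near the shares of all genes that passed the level. Of these, 14.7% were higher and 13.2% lower in DiBA, and 16.3% and 16.4% in BA. Lpin1, a phosphatidate phosphatase that also coactivates PPARs with PGC-1, read 166, 1603 and 1971, differences of 3.27 and 3.57. Kat2b, an acetyltransferase gene, read 68.7, 185 and 204, differences of 1.42 and 1.56. Beside Pprc1, the lower gene in DiBA was Carm1, an arginine methyltransferase gene named after its values were seen, at 1566, 651 and 574, differences of -1.27 and -1.45. Of the general coactivator genes, Ncoa1, Ncoa2, Ncoa3 and Med1, also named afterwards, were not called in either comparison, at 0.70, 0, -0.21 and -0.32 in DiBA. Called in BA alone were Ncoa4, higher at 1.01, and Kat2a, lower at -1.06, beside 0.90 and -0.56 in DiBA. Ncoa4 and Kat2a were likewise named after their values were seen.

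Known target genes of these factors were listed separately, with earlier results of these data known. The count of each target list stands beside the shares of all genes that passed the level. Those were 14.7% higher and 13.2% lower in DiBA, and 16.3% and 16.4% in BA. Of 26 PPAR gamma targets, 22 were measured and 21 passed the level in each comparison with fibroblasts. Of these 21, 20 were higher and 0 lower in DiBA and likewise in BA. The median differences of the 22 were 5.00 and 5.15. Adipoq, the gene of the hormone adiponectin, differed by 8.53 and 8.58, Cidea, a lipid droplet protein gene, by 7.48 and 7.60, and Aqp7, a glycerol channel gene, by 7.27 and 7.41. With the floor, Adipoq was at 6.38 and 6.43, Cidea at 5.77 and 5.89, and Aqp7 at 5.82 and 5.96. Of the 22, 11 lay under 69.2 in fibroblasts, so the size of such differences rests in part on background, but 20 were also higher with the floor. The fatty acid carrier gene Fabp5 and the hormone gene Fgf21 were the 2 not called, and are named after their values were seen.

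Of 26 PPAR alpha targets, 23 were measured, and 19 passed the level in each comparison with fibroblasts. In DiBA 15 were higher and 0 lower, and in BA 16 were higher and 1 lower, with medians of 2.71 and 2.86. Pdk4, a kinase that restrains pyruvate oxidation, differed by 5.94 and 6.04. Acadvl and Ehhadh, enzymes of fatty acid oxidation, differed by 4.39 and 4.53 and by 4.25 and 4.50. Ehhadh lay under 69.2 in fibroblasts and was at 3.41 and 3.65 with the floor, where the count in BA was 15 higher and 1 lower. The lower gene in BA was Cpt1a, the liver-type carnitine palmitoyltransferase, at 477 in fibroblasts, 395 in DiBA and 233 in BA. It was named after its value was seen.

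Of 28 ERR and PGC-1 targets, 27 were measured, and 19 were higher and 0 lower in DiBA and likewise in BA, with medians of 2.11 and 2.28, or 1.66 and 1.93 with the floor. Suclg1, an enzyme of the citric acid cycle, differed by 3.43 and 3.54, and Ckmt2, the mitochondrial creatine kinase of striated muscle, by 2.84 and 3.32. Ckmt2 read 25.8 in fibroblasts, and with the floor it was at 1.45 and 1.93. In DiBA Sod2, a mitochondrial antioxidant enzyme gene, differed by 2.56, and in BA Ndufa4, a respiratory chain subunit gene, by 2.74. Of the regulators of mitochondrial transcription on this list, Tfb2m was called, and Tfam, Tfb1m, Nrf1, Gabpa and Gabpb1 were not. Tfb2m, a mitochondrial transcription factor gene, differed by 1.30 and 1.39. Tfam, the mitochondrial DNA packaging factor gene, read 147, 273 and 271, a difference of 0.89 in DiBA. Nrf1 read 199, 126 and 126, a difference of -0.65 with a tie between DiBA and BA. Tfb1m differed by 0.91 and 0.88, Gabpa by 0.65 and 0.74, and Gabpb1 by -0.81 and -0.92. These regulators were also named after their values were seen.

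All 14 listed LXR targets were measured, and 12 passed the level in each comparison with fibroblasts. In DiBA 10 were higher and 0 lower, and in BA 9 were higher and 0 lower, with medians of 1.79 and 1.76. Apoc1, an apolipoprotein gene, differed by 6.19 and 6.62, Mlxipl, which encodes the glucose-sensing factor ChREBP, by 4.26 and 4.48, and Smpdl3a by 3.34 and 3.47. Apoc1 and Mlxipl lay under 69.2 in fibroblasts and with the floor were at 5.49 and 5.91 and at 3.65 and 3.87. Abcg1, a sterol exporter gene, was named after its values were seen: it read 79.5, 196 and 117, with a difference of 1.29 in DiBA and 0.55 in BA. Several LXR targets are also abundant in macrophages, whose markers were higher in both samples, and their part was not tested.

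**Figure D4:**
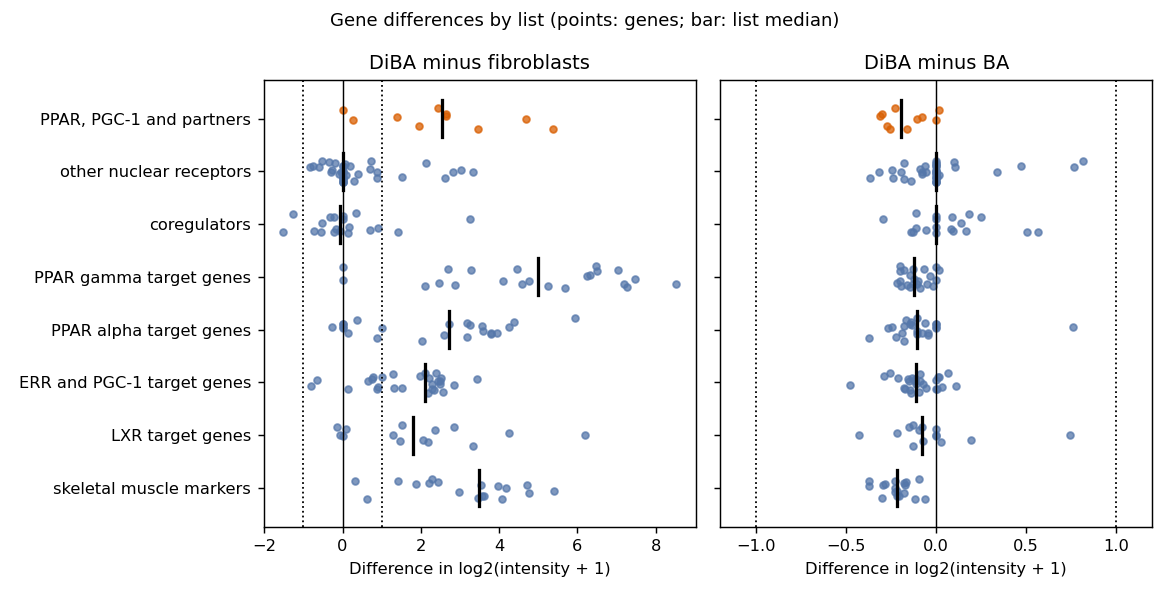
Difference in log2(intensity + 1) of DiBA from fibroblasts (left) and from BA (right) for each measured gene of 8 lists, 1 array per group, with list medians as bars and 2-fold as dotted lines. Medians on the left run from -0.07 for coregulators to 5.00 for PPAR gamma targets, with muscle markers at 3.50, while on the right no gene shown reaches 2-fold.

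Between DiBA and BA, 0 of the genes on these 6 lists reached 2-fold. Of the 11076 genes that passed the level, 1.75% were higher and 0 lower in DiBA. Beside so small a share, a count of 0 says little about these lists. The medians were 0 for other nuclear receptors and for coregulators, -0.12 for PPAR gamma targets, -0.11 for PPAR alpha targets, -0.11 for ERR and PGC-1 targets and -0.08 for LXR targets, beside 0 for all genes.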

How the data were processed

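The deposited values are linear-scale intensities, 1 for every probe set on an array. Per the submitters' processing notes, the authors used Affymetrix Expression Console. How it corrected background, summarized and normalized is not given in the sources used here. Medians of the 3 arrays were close, and intensities were taken as already normalized, which close medians alone do not show. Per the labels' protocols, total RNA was labelled with biotin by a whole-transcript kit. Of 28943 probe sets, 21789 had 1 gene symbol in the platform's probe table, 1621 had several and named no gene, and 5533 were not listed. Of those with 1 symbol, 21698 matched RefSeq GRCm38.p6 by gene identifier, with 0 symbols changed. Log2(intensity + 1) was averaged over a gene's probe sets with Python 3.11.15 and pandas 2.3.3. The calling step was run on simulated data, with changes past 2-fold put into bright genes and little noise. That checks the code, not calls near 2-fold or changes at low intensity. With 1 array per group no test was run. The members and gene lists were chosen with earlier results of these data known. Besides the 10 members, the text names the 3 largest called differences of each pathway list and the 3 nearest genes of each member, with Rxrb, Esrrb and Pprc1 as the remaining genes of their families, and other genes are said to be named after their values were seen. Marker lists are given as counts, sums and medians. Of the brown list, the 3 largest differences and the 3 genes not called are named. Alternatives covered normalization, filter, floor, pseudocount and probe set choice.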

Additional observations from a re-analysis of the deposited data

How the results depend on the processing

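Under 7 alternatives, the count of members called stayed within 1.5 times its value in each comparison. These were quantile normalization, arrays centred on their medians, no level filter, a filter at the 75th percentile, intensities under 69.2 raised to it, a pseudocount of 32, and the brightest probe set per gene. Some of them could change little. Removing the filter could change no call, because all 10 genes passed it. The brightest probe set could alter only Ppargc1a, the 1 gene with 2 probe sets. Raising low intensities touched 4 genes in fibroblasts and no difference between DiBA and BA. Of 210 member differences recomputed, 208 kept their call, 0 reversed and 2 lost it. Both were Esrrg against fibroblasts, in DiBA at 1.95 and in BA at 2.22, whose intensities did not reach 246, the 75th percentile. Sizes depended on background: with a pseudocount of 32 the log2 difference of Ppara in DiBA was 4.63 in place of 5.37, and that of Ppargc1a 2.80 in place of 3.47. Centring moved the median of all genes by less than 0.1 in each comparison. With centring, Ppard was at -0.08 in DiBA against fibroblasts, and Rxra at -0.08 in DiBA against BA. No paired analysis was possible because each group holds 1 array.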

Other observations

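Some genes of these pathways had higher intensities in DiBA than in BA, though none reached 2-fold; they were picked out after their values were seen. The orphan receptor gene Nr4a1 read 273 in fibroblasts, 190 in DiBA and 108 in BA, a DiBA minus BA difference of 0.81. The retinoic acid receptor gene Rara read 268, 176 and 104, a difference of 0.76. Cpt1a differed by 0.76, Abcg1 by 0.74 and Pprc1 by 0.56, or 0.41 with its BA value raised to 69.2. Of these 5 genes Abcg1 was the 1 whose DiBA value exceeded both other arrays.

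Exact ties on all 3 arrays made up a smaller share of each pathway list than of all probe sets, of which 33.4% had the same value on all 3 arrays. Of the 11 probe sets of the 10 genes, 0 were identical on all 3 arrays, as were 0 of 32 for ERR and PGC-1 targets and 1 of 14 for LXR targets. Of the 37 probe sets of other nuclear receptors, 10 had the same value on all 3 arrays and 16 the same in DiBA and BA. Of 21 coregulator probe sets, 2 were identical on all 3 arrays, including Ncoa2 at 311. Over all probe sets, the share identical on all 3 arrays was 60.5% in the lowest 20% by mean intensity and 6.13% in the highest 20%. The share identical in DiBA and BA was 70.7% and 17.5% there.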
